A study of Mus musculus with 2 samples.

Results

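The cytosolic ribosomal protein genes encode the proteins of the ribosome that translates nuclear messages. They were described here in mouse hepatocellular carcinoma (HCC) tumours carrying a control hairpin (shCtrl, genotype label WT) or a hairpin against the splicing factor Srsf10 (shSrsf10). Members were the rows named Rpl or Rps followed by a digit, plus Rplp0, Rplp1, Rplp2 and Rpsa, without -ps pseudogenes and S6 kinase genes. The rule took 86 of 32285 genes. Of these, 77 were the usual subunit genes, 46 of the large and 31 of the small subunit, with the stalk proteins counted as large. Another 8 were copies or paralogues, and Rps19bp1 matched by its name but encodes no ribosomal protein. Each group was 1 single-cell library from tumour tissue, so no difference between them could be tested. The labels do not give the strain, age, number of mice, or the cells that carried the hairpin and its promoter. Tumour suspensions were sorted, by a gate that is not stated. The series text names a 10x 5′ kit while the sample protocol names a 10x 3′ kit and slow centrifugation of liver cells, so which transcript end was counted is uncertain.

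A ribosome holds 1 copy of almost every ribosomal protein, and cells make the proteins in balanced amounts. Their messages are abundant and short, and many begin with a run of pyrimidines, the terminal oligopyrimidine (TOP) motif, through which mTOR signalling and the RNA-binding protein LARP1 control translation. Growing cells carry many such messages, whereas mature neutrophils are known for little RNA and few ribosomes.

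The first transcribed bases are shown for members at both ends of the differences reported further on, and for Fau, a ribosomal protein gene that the naming rule misses. Each line gives 20 bases before and 20 bases from a RefSeq start on the gene's strand (GRCm38.p6). Capitals mark a run of at least 5 C or T bases that begins with C within 5 bases of the start. Rps21 has 2 RefSeq starts, and the start shown was picked because it has a run.
Rps21, chr2:180257359-180257398, plus strand: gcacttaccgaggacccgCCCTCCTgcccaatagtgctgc
Rpl38, chr11:114668560-114668599, plus strand: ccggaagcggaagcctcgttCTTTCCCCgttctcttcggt
Rpl15, chr14:18270967-18271006, minus strand: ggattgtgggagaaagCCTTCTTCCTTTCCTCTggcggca
Fau, chr19:6057927-6057966, plus strand: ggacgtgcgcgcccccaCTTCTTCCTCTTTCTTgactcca
Rps28, chr17:33824543-33824582, minus strand: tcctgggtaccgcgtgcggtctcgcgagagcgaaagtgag
Rplp0, chr5:115559447-115559486, plus strand: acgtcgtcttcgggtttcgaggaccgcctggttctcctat
Such a run, searched on the gene's strand only, stood at 32 of the 77 start sites found for 65 of 85 members searched (41.6%), and at 18.3% of all 32851 start sites of the same length in the table. Rps21 and Rpl38, among the members lowest in shSrsf10, and Rpl15, the highest, all had a run at the start shown. Rps28 and Rplp0, likewise at opposite ends, had none at the annotated start. A match describes letters near an annotated start, and start annotation can be off by some bases.

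The libraries held 9920 (shCtrl) and 7553 (shSrsf10) barcodes with 143327661 and 136419902 unique molecular identifiers (UMIs), and 67 barcode sequences occurred in both. After limits on mitochondrial share and removal of likely doublets, 8814 and 7038 barcodes were kept. Tumour barcodes were those with at least 5 UMIs of Krt8 and Krt18 and none of Ptprc. T barcodes had at least 2 UMIs of the CD3 genes, neutrophil barcodes at least 1% of UMIs on S100a8 and S100a9, and macrophage barcodes at least 3 UMIs of the C1q genes. Each barcode counted belonged to 1 class only. Markers outside the gates were present in the classes that should hold them. Trac, a T cell receptor gene, stood at 494 and 730 CPM (UMIs per 1000000 UMIs of the class) in T barcodes, and Csf3r, a neutrophil receptor, at 807 and 1072 CPM in neutrophil barcodes, in shCtrl and shSrsf10. Srsf10 itself measured 46.1 and 19.5 CPM in tumour barcodes, a log2 ratio of -1.24 (95% interval -1.31 to -1.17). In T barcodes it measured 76.4 and 56.2 CPM. With 1 library per group, preparation and hairpin cannot be told apart, and the exact 95% intervals given below cover counting error only.

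Ribosomal protein messages made up a similar share of UMIs in tumour barcodes of both libraries and a smaller share in neutrophil barcodes of shSrsf10. In tumour barcodes (6326 and 3665) the share was 42.9% in shCtrl and 42.4% in shSrsf10. In T barcodes (326 and 1857) it was 35.6% and 33.4%, and in macrophage barcodes (381 and 125) 25.2% and 24.1%. In neutrophil barcodes (142 and 285) it was 14.1% in shCtrl (interval 13.9 to 14.3) and 8.94% in shSrsf10 (8.83 to 9.05). The classes kept the same order in both libraries: tumour highest, then T, macrophage and neutrophil.

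**Figure D1:**
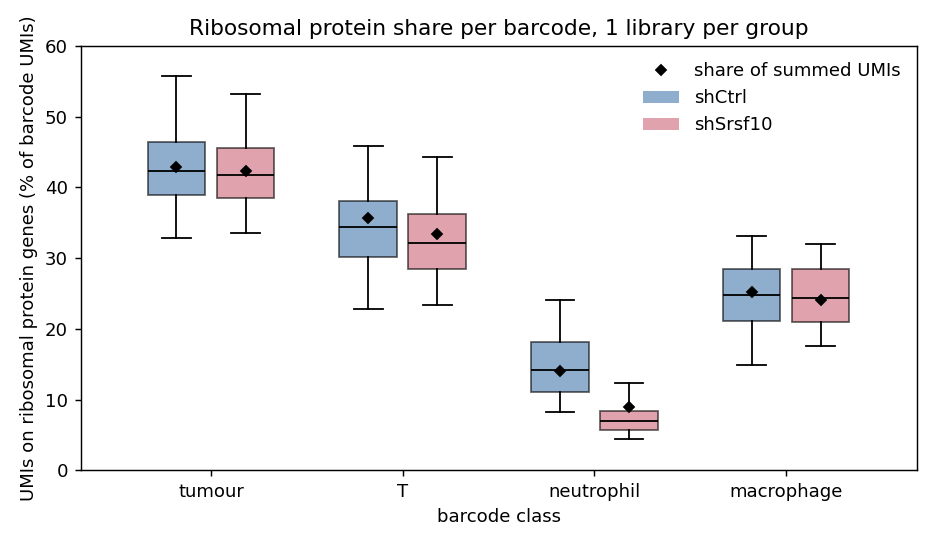
Share of each barcode's UMIs on the 86 ribosomal protein genes (y axis, percent) by barcode class (x axis) and library; boxes span the quartiles with the median, whiskers the 5th to 95th percentile of barcodes, and diamonds the share of summed UMIs. The neutrophil boxes stand apart, with medians of 14.2% in shCtrl and 6.94% in shSrsf10, while the other classes overlap between libraries.

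As log2 ratios of shSrsf10 over shCtrl, the shares differed by -0.02 in tumour, -0.09 in T, -0.06 in macrophage and -0.66 in neutrophil barcodes (neutrophil interval -0.69 to -0.63). Setting the median of all other genes to 0 in place of total UMIs gave 0.06 in tumour barcodes, so the tumour sign depends on the scaling. In T barcodes it gave 0.00, and barcodes with no UMI of the tumour markers described below gave -0.02. The macrophage value was 0.01 without doublet removal. Fewer cells of a kind within a class and fewer messages per cell cannot be told apart in such sums. Median shares per barcode were 42.3% and 41.8% in tumour, 34.4% and 32.2% in T and 24.8% and 24.3% in macrophage barcodes.

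The neutrophil difference was spread over many barcodes. More than 10% of UMIs were ribosomal protein messages in 120 of 142 shCtrl neutrophil barcodes (84.5%) and in 35 of 285 in shSrsf10 (12.3%). A median shCtrl neutrophil barcode held 95.5 ribosomal protein UMIs and 560.5 others. A median shSrsf10 barcode held 55 and 743. The spread between barcodes of a library, an SD of 5.6 points in shCtrl and 3.26 in shSrsf10, was larger than the 1.35 and 0.93 points that counting alone gives.

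Tumour RNA moved with that difference. All 9 tumour epithelial markers were detected in every immune class of both libraries. Their summed level in neutrophil barcodes was 2477 CPM in shCtrl and 1079 CPM in shSrsf10, which is 18.7% and 10.1% of the level in tumour barcodes. In T barcodes the sums were 1827 and 975 CPM, and in macrophage barcodes 1508 and 661 CPM. Subtracting the tumour profile of the same library, scaled to those markers, lowered the neutrophil share to 7.37% in shCtrl and 5.15% in shSrsf10, a log2 ratio of -0.52. In the barcodes with no UMI of any of the 9 markers (22 and 128) the shares were 13.7% and 7.25%, a log2 ratio of -0.92, although such shallow barcodes can still hold tumour RNA. Leaving out the UMIs of S100a8 and S100a9 gave -0.77, and leaving out barcodes with a UMI of the cycling genes Mki67 and Top2a gave -0.99. S100a8 and S100a9, the main neutrophil products and the gate genes, took a smaller share of UMIs in shSrsf10. They made up most of the sum of the 6 neutrophil markers, 183666 and 119281 CPM. Of the other markers, Csf3r (807 and 1072 CPM), Cxcr2 (171 and 286 CPM) and G0s2 (6064 and 8149 CPM) were higher in shSrsf10. Retnlg was lower (4294 and 3279 CPM). Monocyte markers summed to 295 and 722 CPM, of which Ly6c2 gave 295 and 684 CPM. Ccr2 gave 0 and 37.6 CPM, and Vcan had no UMI. Ly6c2 was also higher in shSrsf10 in T barcodes, at 115 and 1221 CPM. Malat1, a nuclear RNA, stood at 1522 and 1139 CPM, and mitochondrial transcripts at 0.77% and 0.28% of neutrophil UMIs. Genes induced by tissue dissociation summed to 2446 and 2775 CPM. Of these only Junb was higher in shSrsf10, at 1172 and 2159 CPM. All others on that list were lower, among them Hspa1a, a heat shock gene, at 342 and 37.6 CPM. The part of these markers in the neutrophil difference was not tested.

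Within tumour barcodes the member genes differed in small, ordered steps. Of 83 members with at least 50 UMIs over both libraries, 1 was at least 25% higher in shSrsf10 and 7 at least 20% lower, thresholds of the same size on the log2 scale. Over all 13106 genes with that many UMIs the shares were 13.2% higher and 28.6% lower, beside 1.2% and 8.43% of the members. With the median of other genes at 0, none of the members was that much lower in tumour barcodes and 1 was higher. The median member log2 ratio was 0.02, beside -0.08 for all genes tested. The members below 50 UMIs were the copies Rpl3l, Rpl10l and Rpl39l, which were also too low in the other classes, together with Rps27rt and Rpl7l1 in neutrophil and macrophage barcodes and Rpl15 and Rps19bp1 in neutrophil barcodes. None passed 1.5-fold either way in tumour barcodes, where the background was 6.83% higher and 12.2% lower.

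Among the lowest in tumour barcodes were small proteins of both subunits. Rpl39, which lines the exit tunnel for new peptides, measured 3514 CPM in shCtrl and 2708 CPM in shSrsf10, a log2 ratio of -0.38. The Rps27 copy Rps27rt (18.2 and 14.1 CPM, -0.36), Rps29 (2147 and 1673 CPM, -0.36), Rps21 (6433 and 5018 CPM, -0.36) and Rpl38 (3523 and 2784 CPM, -0.34) were also among them. Rpl38 is known for its role in translating Hox messages in the mouse embryo. The highest was Rpl15, a core large subunit gene, with 205 CPM in shCtrl and 295 CPM in shSrsf10, a log2 ratio of 0.52 (0.50 to 0.55). Its counts were unusually low for such a gene, so its values are uncertain. In tumour barcodes of shCtrl it took 0.048% of ribosomal protein UMIs, where Rpl4, the next lowest usual subunit gene, took 0.34%. The reason for the low counts of Rpl15 was not tested. Rplp0, which anchors the ribosomal stalk that recruits elongation factors, measured 5253 and 6200 CPM (0.24). Rpl7l1, Rpl8, Rpl3 and Rpl21 followed with log2 ratios from 0.22 down to 0.17. Rps19bp1, a binding partner of Rps19 taken in by its name, measured 73.3 and 85.1 CPM (0.22).

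T barcodes showed the same kind of spread, but wider. By the same thresholds, 6 of 83 members were higher and 20 lower, where all 7895 genes tested gave 22.6% and 35.2%. The counts were 12 higher and 14 lower with the median of other genes at 0, and 15 and 18 in T barcodes with no tumour marker UMI. At 1.5-fold, 6 were lower and none higher, beside 21.4% and 11.3% of all genes. Those 6 were Rps28, Rps29, Rps21, Rpl37a, Rpl38 and Rpl41. Rps28, which sits near the mRNA exit site of the small subunit, measured 2689 CPM in shCtrl and 1623 CPM in shSrsf10 (-0.73, interval -0.79 to -0.67). Rpl41, the smallest ribosomal protein, measured 10775 and 7173 CPM (-0.59), against only 15365 and 13811 CPM (-0.15) in tumour barcodes. The higher members were Rpl15 (0.56), Rplp0 (0.53), Rpl29 (0.42), Rpl4 (0.41), Rpsa (0.36) and Rpl24 (0.32). Rplp0 stood at 3892 CPM in shCtrl and 5613 CPM in shSrsf10. In T barcodes with a UMI of Cd8a or Cd8b1 the share of all members differed by -0.15 on the log2 scale, and in those with Cd4 and no Cd8 UMI by 0.00, a difference between the subsets that was not tested.

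In neutrophil barcodes 62 of 79 members were at least 20% lower and none at least 25% higher, beside 25% lower and 47.7% higher among all 997 genes tested. At 1.5-fold, 43 were lower, beside 15.7%, and none higher, beside 32.8%. The median member log2 ratio was -0.62, and that of all genes tested 0.28. Other genes had a median of 0.35 when members were left out, so on a scale with that median at 0 the share of members differed by -1.0. Rps21 measured 2578 CPM in shCtrl and 936 CPM in shSrsf10 (-1.46, interval -1.70 to -1.22). Rpl38 measured 1693 and 669 CPM (-1.34). Not every member was lower: Rpl29 (0.10), Rplp0 (0.03) and Rps9 (0.02) all had intervals that held 0. Rps9 measured 2717 and 2749 CPM.

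Macrophage barcodes held few members past these thresholds. Of 81 members, 1 was at least 25% higher and 10 at least 20% lower, beside 21.2% and 29.5% of 3118 genes tested. At 1.5-fold the single higher member was Rpl15, with 90 and 85 UMIs (93.1 and 182 CPM), and none was lower, beside 7.6% and 17.3%. Rps29 (3541 and 2471 CPM, -0.52), Rps28 (2525 and 1791 CPM, -0.50) and Rpl38 (2700 and 1945 CPM, -0.47) were the lowest of those with at least 200 UMIs. Rpl29 (2304 and 2768 CPM, 0.27), Rplp0 (2142 and 2503 CPM, 0.22) and Rpl19 (4209 and 4863 CPM, 0.21) were the highest.

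The log2 ratios of the members rose with the length of their coding sequence in all 4 classes. Median ratios differed little between members of 450 to under 600 bases and longer ones. This relation was noticed in these data and is described, not tested. Length was that of the longest annotated coding sequence of each gene, which can be longer than that of its main message. Every tested member under 300 coding bases was lower in shSrsf10: 10 of 10 in tumour, 10 of 10 in T, 9 of 9 in neutrophil and 9 of 9 in macrophage barcodes. Among all genes tested, 57.7%, 56.8%, 37.3% and 52.1% were lower, in the same order of classes. Of the other genes under 300 bases, 117 of 234, 112 of 175, 43 of 81 and 65 of 140 were lower. The median log2 ratios of the members under 300 bases were -0.34, -0.61, -0.99 and -0.43. Members of at least 600 coding bases had medians of 0.10, 0.13, -0.45 and 0.05 in the same order. Those from 300 to under 450 bases lay between, at -0.05, -0.26, -0.86 and -0.07. Members from 450 to under 600 bases, at 0.08, 0.11, -0.43 and 0.02, were near those of at least 600 bases.

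**Figure D2:**
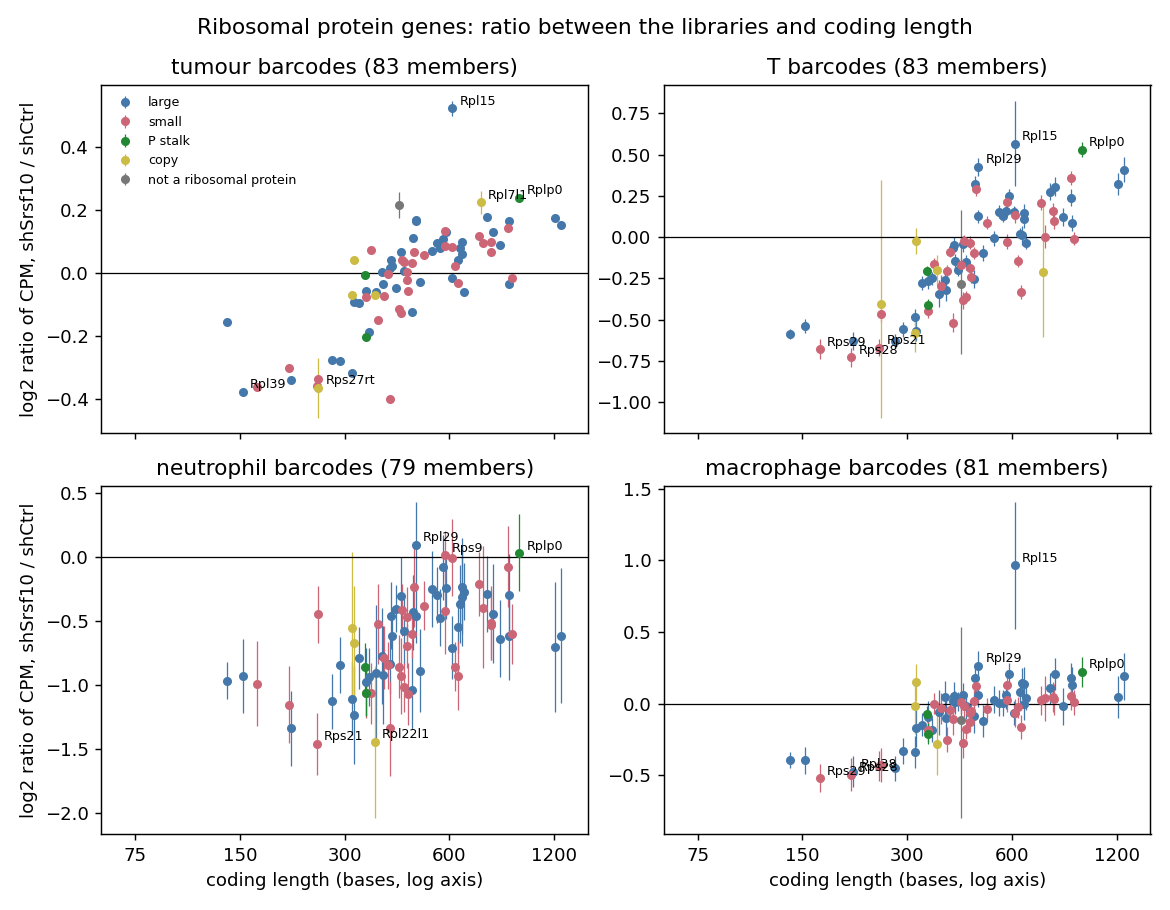
Log2 ratio of CPM, shSrsf10 over shCtrl (y axis), against coding length in bases (x axis, log scale) for the members with at least 50 UMIs in each of 4 barcode classes; bars are 95% counting intervals and colours give the subunit. The short members Rps29, Rps28 and Rps21 lie low and the long member Rplp0 lies high in every panel, and Rpl15 stands above the others in tumour and macrophage barcodes.

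Across members, Spearman's rho between coding length and log2 ratio was 0.76 in tumour (83 genes), 0.82 in T (83), 0.64 in neutrophil (79) and 0.70 in macrophage barcodes (81). The genes share 2 libraries and their depth, so they are not replicates. The 12 shortest tested members, from 138 to 315 coding bases, together took 5.97% of tumour UMIs in shCtrl and 4.95% in shSrsf10, and 4.54% and 3.02% of T UMIs. The 12 longest, from 771 to 1257 bases, took 5.0% and 5.38% of tumour UMIs and 4.08% and 4.79% of T UMIs. So in tumour and T barcodes the short members took a smaller share in shSrsf10 and the long ones a larger share. The 12 longest took 2.41% and 2.58% of macrophage UMIs, but a smaller share of neutrophil UMIs in shSrsf10 (1.29% and 0.96%). Both ends held members of both subunits: Rps29, Rps21 and Rps28 with Rpl39 and Rpl38 at the short end, Rpsa, Rps2 and Rps4x with Rpl3 and Rpl4 at the long end.

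By these lengths, some members left the line. Rpl41, the shortest at 138 bases by its longest annotated coding sequence, was less far down in tumour barcodes than Rpl39 at 153 bases. Rpl15, of 612 bases, stood far above its neighbours in tumour barcodes. Rps19, of 636 bases by its longest annotated coding sequence, was lower in T (-0.33) and neutrophil barcodes (-0.93). Such a length may exceed that of the main message, so whether Rps19 or Rpl41 leaves the line is uncertain.

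**Figure D3:**
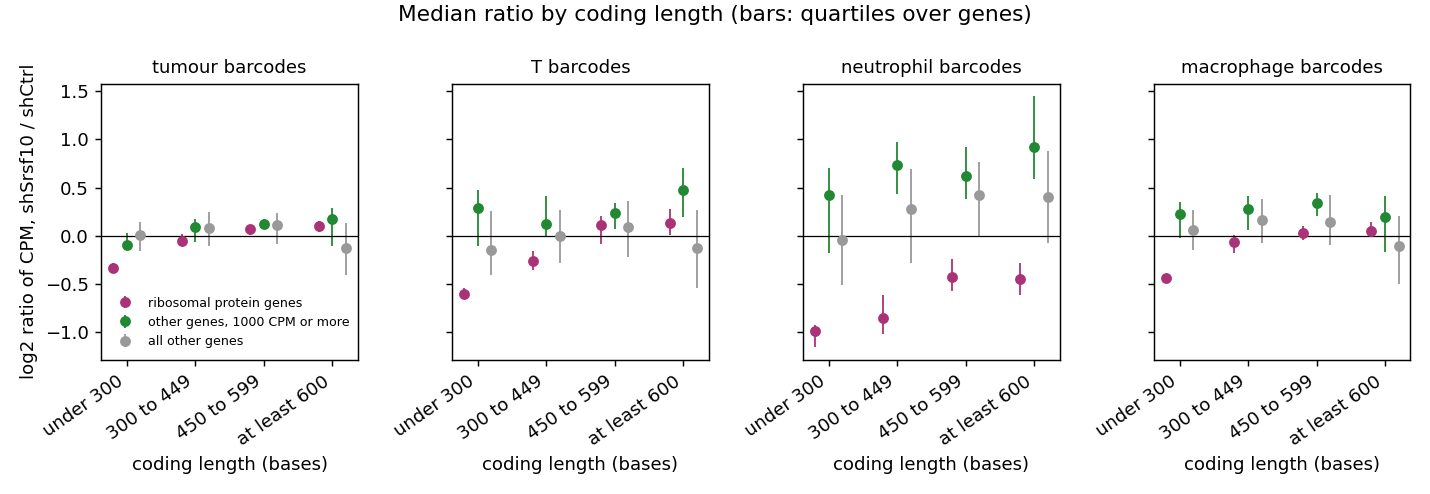
Median log2 ratio of CPM, shSrsf10 over shCtrl (y axis), by coding length in bases (x axis), for ribosomal protein genes, other genes of at least 1000 CPM and all other genes in 4 barcode classes; bars span the quartiles over genes. Ribosomal protein genes under 300 bases lie lowest in every panel, and in neutrophil barcodes members lie below both other sets at every length.

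Other genes gave lower or negative values of rho. Over all other genes with at least 50 UMIs, rho was -0.34 in tumour, -0.30 in T, 0.04 in neutrophil and -0.35 in macrophage barcodes. Among other genes of at least 1000 CPM it was 0.27, 0.27, 0.37 and -0.07, over 68 to 95 genes a class. Abundant other genes under 300 bases had a median of -0.10 in tumour (12 genes) and 0.29 in T barcodes (13 genes), where members of that size had -0.34 and -0.61. The difference between these sets of genes was not tested.

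The relation was seen in deep and shallow barcodes alike. Tumour barcodes under 10000 UMIs gave a rho of 0.71, and those of at least 10000 UMIs gave 0.74. After subtraction of the tumour profile, rho was 0.82 in T, 0.65 in neutrophil and 0.76 in macrophage barcodes. In neutrophil barcodes that subtraction put members of at least 600 bases at a median of 0.05, in place of -0.45, and those under 300 bases at -1.04. In neutrophil barcodes with no tumour marker UMI rho was 0.37. Between classes of 1 library the length relation varied. For neutrophil over tumour barcodes rho was -0.53 in shCtrl and -0.15 in shSrsf10, for macrophage over tumour -0.27 and -0.23, and for T over tumour 0.01 and 0.26. Which transcript end was counted is uncertain, as given above, and its part in the relation was not tested.

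The stalk proteins differed among themselves. Rplp0 was higher in shSrsf10 in tumour, T and macrophage barcodes, as given above. Its partner Rplp2, of 345 coding bases, measured 10071 and 8746 CPM in tumour (-0.20) and 7402 and 5571 CPM in T barcodes (-0.41). Rplp1, the other partner, measured 8080 and 8056 CPM in tumour barcodes, a log2 ratio of 0.00, and -0.21 in T barcodes. Rplp1 and Rplp2 form dimers on Rplp0, so 1 complex held members on both sides of 0.

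Members with known functions beside translation gave small differences in tumour barcodes. Rpl5 (-0.03) and Rpl11 (0.07) bind and hold back the p53 ligase Mdm2 when ribosome assembly fails. Rps6 (0.10) is the substrate of the S6 kinases below mTOR. Rps27a (0.03) is made as a fusion with ubiquitin, and Rps19 (-0.03) and Rps14 (-0.02) are known from inherited and acquired anaemias. In T barcodes the same genes read 0.09, -0.01, 0.00, -0.10, -0.33 and -0.19. All 6 were negative in neutrophil barcodes, from -0.25 for Rpl11 to -0.93 for Rps19, where the intervals of Rpl11 and Rps6 held 0.

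Cell classes also differed in the make-up of their ribosomal protein messages, and some of these differences recurred in both libraries. Among 72 members with at least 200 UMIs in each class, shares were taken of ribosomal protein UMIs alone. For 49 of the 72 the highest class was the same in both libraries. The median member differed between its highest and lowest class by 0.48 (shCtrl) and 0.55 (shSrsf10) on the log2 scale. Past 1.5-fold against tumour barcodes, in both libraries and in the same direction, were 3 members higher in T, 3 higher in neutrophil, and 6 higher and 3 lower in macrophage barcodes. Within single libraries the counts were 3 higher and 0 lower (shCtrl) and 8 and 7 (shSrsf10) in T, 3 and 2 and then 5 and 4 in neutrophil, and 7 and 4 and then 8 and 3 in macrophage barcodes. No like count was made over all genes. Whether members differ between classes more or less than other genes is therefore not shown.

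**Figure D4:**
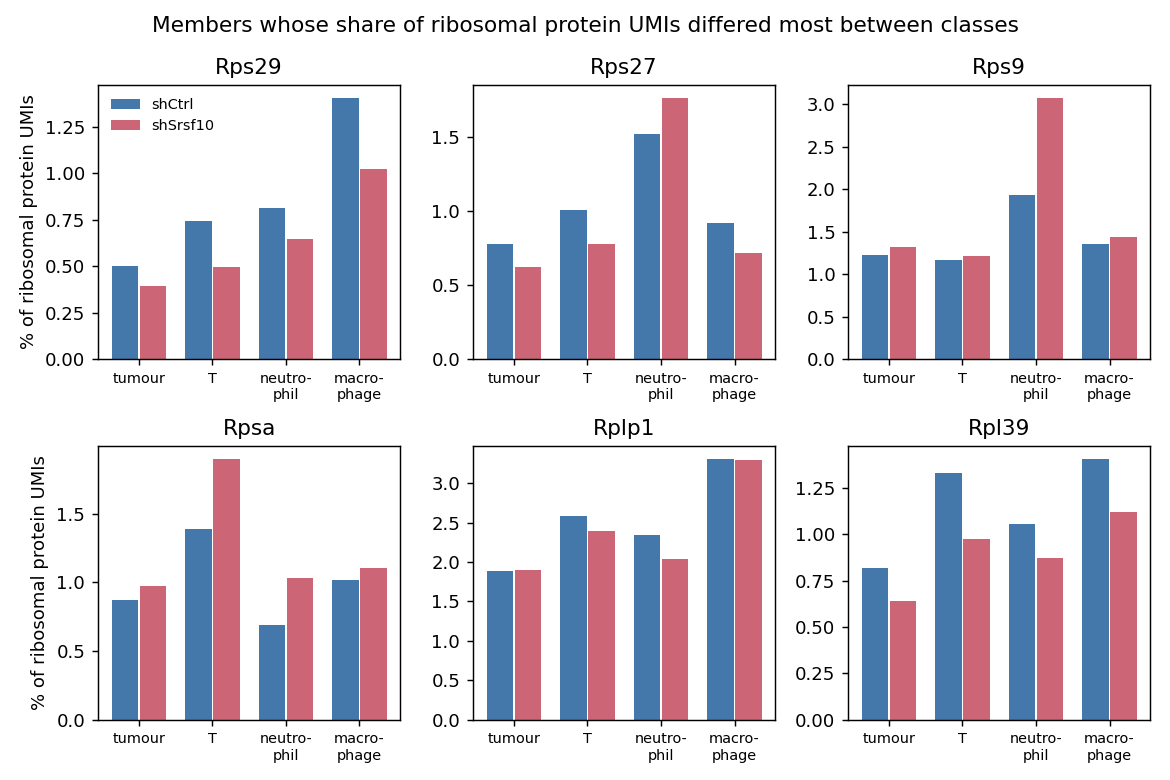
Percent of ribosomal protein UMIs (y axis) taken by the 6 members with the widest spread between the 4 barcode classes (x axis), by library; 1 library per bar. Rps29, Rplp1 and Rpl39 are highest in macrophage barcodes, Rps27 and Rps9 in neutrophil barcodes and Rpsa in T barcodes, in both libraries.

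Rps29 had the widest spread. It took 1.41% of ribosomal protein UMIs in macrophage barcodes of shCtrl and 0.50% in tumour barcodes, and 1.03% and 0.40% in shSrsf10. It was lower in shSrsf10 in every class and still kept macrophage highest and tumour lowest. Rps9, a small subunit protein that helps set decoding accuracy, took 1.93% and 3.08% in neutrophil barcodes, beside 1.23% and 1.32% in tumour barcodes. Rps27, a zinc finger protein of the small subunit, took 1.53% and 1.77% in neutrophil barcodes and 0.78% and 0.62% in tumour barcodes. Rpsa, which also serves as a laminin receptor, took 1.39% and 1.90% in T barcodes and 0.87% and 0.98% in tumour barcodes. Rplp1 took 3.31% and 3.29% in macrophage barcodes, beside 1.88% and 1.90% in tumour barcodes. Tumour RNA in the immune classes differs between the libraries, as given above, and its part in these shares was not tested.

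The share of copies and paralogues within their pairs differed between some classes. UMIs count molecules, so the share of a pair was taken from raw UMIs. Rpl22l1, the paralogue of Rpl22, took 35.1% of the pair in tumour barcodes of shCtrl and 33.9% in shSrsf10. In T barcodes it took 26.6% and 27.4%, and in macrophage barcodes 25.2% and 21.2%. Rpl22 is needed for the development of alpha-beta T cells. Rpl36al ran the other way, with 30.5% and 32.5% of its pair with Rpl36a in tumour, 35.5% and 44.5% in T and 46.4% and 52.0% in macrophage barcodes. Rps27l, a p53-induced paralogue of Rps27, took 24.7% and 28.3% in tumour, 16.6% and 15.5% in T and 23.5% and 29.0% in macrophage barcodes. In neutrophil barcodes Rpl22l1 took 34.5% (interval 27.4 to 42.2) in shCtrl, near its tumour share, and 24.9% (18.7 to 31.9) in shSrsf10. There Rpl36al took 39.4% and 49.1%, and Rps27l 13.7% and 12.9%.

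Tissue-restricted copies were almost silent. Rpl10l, a testis gene, had no UMI in any class, beside 473958 and 443145 UMIs of Rpl10 in tumour barcodes. Rpl39l had 0 and 10 UMIs in tumour barcodes. Rpl3l, known from muscle, had 7 UMIs in each library's tumour barcodes but 3 and 6 UMIs in the far smaller neutrophil sums, 4.76% (interval 0.99 to 13.3) and 7.32% (2.73 to 15.2) of its pair with Rpl3. Rps27rt held between 0.53% and 0.61% of the pair with Rps27 in tumour, T and macrophage barcodes of both libraries. Its sequence is near that of Rps27, so reads may be split between them and its values are uncertain; the same holds for pseudogene rows such as Rpl9-ps6 (21.5 and 23.9 CPM in tumour barcodes), which the rule leaves out.

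Fau, whose protein is a ubiquitin-like fusion that yields a small subunit protein, had a higher CPM in shSrsf10 in neutrophil barcodes, unlike most members. It measured 6258 CPM in shCtrl and 7360 CPM in shSrsf10 there, a log2 ratio of 0.23 (0.11 to 0.35), where 76 of 79 members were below 0. That value lies below the median of 0.35 of other genes in the class, so its sign turns when that median is set to 0. In tumour barcodes it measured 6189 and 6043 CPM (-0.03), in T barcodes 7185 and 7703 CPM (0.10) and in macrophage barcodes 6473 and 6820 CPM (0.08).

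Other translation genes, taken from lists chosen with earlier results of these data known, differed gene by gene. Of 19 other TOP messages tested, none was at least 25% higher and 1 at least 20% lower in tumour barcodes, and 5 higher and 2 lower in T barcodes. Over all genes tested the shares were 13.2% higher and 28.6% lower in tumour and 22.6% and 35.2% in T barcodes. Elongation factor Eef1a1 measured 4391 and 5210 CPM in tumour (0.25) and 4454 and 6175 CPM in T barcodes (0.47). Eif5a, which helps ribosomes past stalling peptides, had log2 ratios of 0.42 in tumour, 0.49 in T, 0.75 in neutrophil and 0.59 in macrophage barcodes. Eif3f, a subunit of the initiation factor that prepares the small subunit, was the lowest listed gene in tumour barcodes, at 433 and 177 CPM (-1.29), and read -0.91 in T and -1.04 in macrophage barcodes. Another subunit of the same factor, Eif3h, read 0.27 in tumour and 0.50 in T barcodes.

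Genes that build ribosomes gave different medians in T and tumour barcodes. Of 29 ribosome biogenesis genes tested in T barcodes, 13 were at least 20% lower and 2 at least 25% higher, beside 35.2% and 22.6% of all genes tested, with a median of -0.29 beside -0.09. In tumour barcodes 1 of 30 was lower and 1 higher, beside 28.6% and 13.2% of all genes, with a median of 0.05. Ncl, the nucleolar protein nucleolin, measured 776 and 475 CPM in T barcodes (-0.71), but 0.97 in those with no tumour marker UMI, and 464 and 430 CPM in tumour barcodes (-0.11). The cell-cycle markers Mki67 and Top2a summed to 298 CPM in T barcodes of shCtrl and 167 CPM in shSrsf10. Their part in the T values of these genes was not tested. Mitochondrial ribosomal protein genes, a separate set for the mitochondrial ribosome, had a median of 0.14 in tumour barcodes, with 2 of 78 higher and 1 lower. The lower one was Mrps30, at 31.2 and 13.4 CPM (-1.22). Of 14 genes that control TOP translation, 7 were lower and 1 higher in tumour barcodes, against the same 28.6% and 13.2%. Larp1 itself measured 47.4 and 37.2 CPM there (-0.35). In T barcodes 5 of 13 were lower and 2 higher, near the 35.2% and 22.6% of all genes. Only 4 of these genes could be tested in macrophage and 1 in neutrophil barcodes. Of 9 p53 target genes tested in T barcodes, 7 were lower and none higher, beside the 35.2% and 22.6% of all genes given above. The lower ones include Rps27l (-0.58), itself a member. In tumour barcodes 3 of 12 were lower and none higher, beside 28.6% and 13.2%. In macrophage barcodes 1 of 5 was lower and 1 higher, beside 29.5% and 21.2%. In neutrophil barcodes 1 of 3 was lower and 2 higher, beside 25% and 47.7%.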

How the data were processed

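Single-cell libraries of 2 tumour groups, 1 library each, were analysed. The deposited matrices hold raw UMI counts per gene and barcode, made by the authors with Cell Ranger 6.1.0 on mm10, per the submitters' processing notes. The counts were read with Python 3.11.15 and summed per library and class. Barcodes needed at least 200 genes and 500 UMIs and at most 20% mitochondrial UMIs. The highest Scrublet scores (scanpy) were removed at 0.8% per 1000 barcodes, since its automatic threshold marked 0 and 200 barcodes. Removed as doublets were 728 and 448 barcodes, and 42 and 76 in more than 1 class were left out. Genes with at least 50 UMIs over both libraries were compared as CPM of class UMIs. Log2 ratios carry exact conditional binomial 95% intervals and shares exact Clopper-Pearson ones, for counting error only, and no test was made. Code was tested on simulated counts. Named members were the 6 highest and 6 lowest log2 ratios in tumour and T and the 3 highest and 3 lowest in neutrophil and macrophage barcodes (at least 200 UMIs), copies with partners, the stalk proteins, some members with known other roles, and the 6 with the widest spread between classes. Other features named were chosen after their values were seen. Members and lists were chosen with earlier results of these data known. Coding length is the longest coding sequence in GENCODE (GRCm38). Alternatives changed filters, gates, scaling and subsets. Those on tumour markers, tumour subtraction, S100a8 and S100a9, and coding length were added after seeing the data. Promoters matched 65 of 85 members. Some genes that the rule names are not reported here.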

Additional observations from a re-analysis of the deposited data

Results flagged for a closer look

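Rpl24, a large subunit gene, pointed in opposite ways in 2 barcode classes. Its log2 ratio of shSrsf10 over shCtrl was 0.32 in T barcodes (3489 and 4366 CPM) and -0.43 in neutrophil barcodes (1258 and 933 CPM). Both counting intervals lay off 0, at 0.27 to 0.37 and -0.72 to -0.14. With 1 library per group the difference was not tested. Taken as a share of ribosomal protein UMIs, Rpl24 was higher in shSrsf10 in both classes, at 0.98% and 1.31% in T and 0.89% and 1.04% in neutrophil barcodes.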

How the results depend on the processing

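No paired analysis was possible because each group is 1 library, and no replicate could be left out. Values below are log2 ratios of the ribosomal protein share, shSrsf10 over shCtrl, then counts of members at least 25% higher or 20% lower. In tumour barcodes (-0.018) the share ratio was -0.019 with barcodes of more than 1 class kept and with a 10% mitochondrial limit, -0.022 with all deposited barcodes and with no doublet removal, -0.020 with doubled gates, -0.017 as a mean over barcodes, -0.021 over nuclear UMIs, -0.016 without cycling barcodes, 0.059 with the median of other genes at 0 and -0.12 in barcodes under 10000 UMIs. In T barcodes (-0.094) it was -0.086 with barcodes of more than 1 class kept and with doubled gates, -0.072 with all deposited barcodes, -0.073 with no doublet removal, -0.063 as a mean over barcodes, 0.00067 with the median of other genes at 0, -0.10 without cycling barcodes, -0.15 and -0.0049 in Cd8 and Cd4 barcodes, -0.017 in barcodes with no tumour marker UMI and -0.084 after tumour subtraction. In neutrophil barcodes (-0.66) it was -0.49 with all deposited barcodes, -0.51 with no doublet removal, -0.99 as a mean over barcodes and without cycling barcodes, -1.0 with the median of other genes at 0, -0.92 with no tumour marker UMI, -0.52 after tumour subtraction and -0.77 without S100a8 and S100a9. In macrophage barcodes (-0.064) it was -0.0017 with barcodes of more than 1 class kept, -0.0030 after tumour subtraction, 0.0078 with all deposited barcodes, 0.0094 with no doublet removal, 0.011 as a mean over barcodes, -0.035 with the median of other genes at 0 and -0.028 with no tumour marker UMI. The causes of these shifts were not tested. Members counted lower in tumour barcodes (7) were 0 with the median of other genes at 0 and 11 under 10000 UMIs, and those higher (1) were 2 with no UMI minimum. In T barcodes the lower (20) were 13 with all deposited barcodes, no doublet removal and Cd4 barcodes, and the higher (6) were 10 as a mean over barcodes, 12 with the median of other genes at 0 and as shares of ribosomal protein UMIs, 3 in Cd8 barcodes and 15 with no tumour marker UMI. In neutrophil barcodes the higher (0) were 2 with no minimum, 17 as shares of ribosomal protein UMIs, 1 with no tumour marker UMI and 9 after tumour subtraction, and the lower (62) were 15 as shares of ribosomal protein UMIs. In macrophage barcodes the higher (1) were 3 with all deposited barcodes and with no doublet removal, 6 as a mean over barcodes, 2 as shares of ribosomal protein UMIs and after tumour subtraction, and 12 with no tumour marker UMI. Signs turned for Rpl39 in neutrophil barcodes with no tumour marker UMI (0.029), Rpl10 in neutrophil barcodes after tumour subtraction (0.054), and Ncl in T barcodes with no tumour marker UMI (0.97) and in macrophage barcodes with barcodes of more than 1 class kept (0.21). The rho between coding length and log2 ratio ranged from 0.71 to 0.77 over the alternatives in tumour, 0.72 to 0.85 in T, 0.37 to 0.69 in neutrophil and 0.45 to 0.81 in macrophage barcodes. Neutrophil values rest on 18156 and 23763 ribosomal protein UMIs and are the least precise.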

Other observations

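Barcodes that met none of the 4 gates, 1597 in shCtrl and 1030 in shSrsf10, differed the other way from the classes. Ribosomal protein messages took 33.7% of their UMIs in shCtrl and 35.7% in shSrsf10. These barcodes mix cell types that the rule does not name, and the share was not compared further.

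Mitochondrial transcripts were lower in shSrsf10 in every class, at 0.41% and 0.21% of UMIs in tumour, 0.51% and 0.25% in T, 0.77% and 0.28% in neutrophil and 0.72% and 0.14% in macrophage barcodes. Without mitochondrial UMIs in the total, the log2 ratios of the ribosomal protein share were -0.021 in tumour, -0.098 in T, -0.66 in neutrophil and -0.073 in macrophage barcodes.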
